A study of Homo sapiens with 15 samples.

Results

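The ATF4 and CHOP stress core is a set of 10 human genes: ATF4, DDIT3 (which encodes CHOP), ATF3, CEBPB, TRIB3, CHAC1, ASNS, SESN2, DDIT4 and PPP1R15A. The members were taken by symbol from a list and matched to Ensembl gene identifiers in a table of 58219 genes. All 10 were found, and all 10 were among the 17599 genes that passed the filter on low counts.

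These genes were followed in BEAS-2B cells, an immortalized line of human bronchial epithelial cells grown without serum, by poly-A RNA sequencing of 15 libraries. The libraries came from 3 independent experiments for each of 5 conditions. In the 24-h protocol, cells were exposed for 24 h to vehicle (24-h control), to 1 µg/cm2 or to 30 µg/cm2 of PM2.5, fine airborne particles recovered from filters collected in Beijing. In the repeated protocol, cells were exposed each day to vehicle (repeated control) or to 1 µg/cm2 and were washed between exposures; the labels give 7 days of exposure, whereas the methods give a single exposure fewer before collection on day 7. All 15 libraries came from this 1 line, for which the labels name no engineered allele, and no library of the repeated protocol received 30 µg/cm2. The experiment number marks an experimental batch shared by control and treated cells of the same protocol, and the numbers of both protocols are unrelated.

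The integrated stress response is a pathway in which kinases that sense unfolded protein, amino acid shortage, double-stranded RNA or heme deficiency phosphorylate the translation factor eIF2, which lowers general protein synthesis while raising translation of the ATF4 messenger RNA. ATF4 is a basic leucine zipper transcription factor that switches on genes of amino acid supply and further transcription factors, among them CHOP, and several of its targets feed back on the pathway. Because ATF4 is controlled largely at translation, its RNA level is not a measure of its protein, and the levels described here are RNA levels.

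Total counts ranged from 21460981 to 34724765 per library, and mitochondrial genes took 2.37% to 4.40% of them. The 3 libraries of 24-h experiment 2 had 4.13% to 4.40%, and no other library exceeded 3.42%. All 7 airway epithelium markers (KRT5, KRT8, KRT18, KRT19, TP63, CDH1 and EPCAM) exceeded 3 counts in each library. Markers of ciliated and secretory cells, leukocytes and endothelium each summed to under 1 CPM (counts scaled to the size of the library), and PTPRC, CD68, LYZ, CDH5, SCGB1A1 and MUC5B did not exceed 3 counts in any library. The 7 fibroblast markers were also above 3 counts in each library, at 59.5 to 128.5 CPM in sum. The summed airway markers were lower at 30 µg/cm2 (843 to 1309 CPM) than in the 24-h controls (2004 to 2522 CPM). In edgeR 4 of the 7 fell, where 8.07% of all genes tested were called. KRT5 was among the 4, with a log2 fold-change of -2.46 (adjusted p = 7.57e-06). In a bulk sample, fewer cells of a type and less RNA per cell cannot be told apart, and the part of these markers in the results on the stress core was not tested.

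Experiment 2 of the 24-h protocol stood apart from experiments 1 and 3, and the difference lay in part in the stress core itself. Between libraries of the same condition, the chi-square of the counts per degree of freedom was 76.6 to 181 for pairs with experiment 2, but 4.44 to 18.1 for experiment 1 against 3. In the repeated protocol it was 4.32 to 5.10 between controls. After repeated 1 µg/cm2 it was 19.7 and 25.5 for pairs with experiment 3, against 4.69 for experiment 1 against 2. In the experiment 2 control, CHAC1 was 19.3-fold its mean in the other two controls, ASNS was 4.55-fold, DDIT3 3.90-fold, SESN2 2.81-fold and ATF3 2.62-fold. These 5 of 10 members (50%) were at least 2-fold higher there, against 5.95% of the genes tested. ATF4 (1.78-fold), TRIB3 (1.73-fold), CEBPB (1.17-fold), DDIT4 (1.14-fold) and PPP1R15A (1.00-fold) differed less. At 1 µg/cm2, 6 of 10 members were at least 2-fold higher in experiment 2, against 9.43% of genes. At 30 µg/cm2 no member was 2-fold higher there (7.42% of genes were), and PPP1R15A stood at 0.451 times, and ATF3 at 0.539 times, the mean of experiments 1 and 3. The cause of these levels was not tested.

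Each comparison is accordingly given by 3 fits of edgeR's quasi-likelihood test to all genes. The unpaired fit used all 15 libraries with 1 mean per condition, and the paired fit added the experiment number as a block. The last fit left out the 3 libraries of 24-h experiment 2, so each 24-h group had 2 libraries. Several members were high in the control of experiment 2, so leaving it out lowers their control mean and spread by its choice. The calls and p-values of that fit describe experiments 1 and 3 and are not separate support for the other fits. A gene was called when its adjusted p (Benjamini-Hochberg, over all tested genes) was under 0.05 and its log2 fold-change was at least 0.6 in size, and "rose" or "fell" is used only of called genes. Values by library are CPM after TMM scaling, listed in the order of experiments 1, 2 and 3, and group values are means ± SD (n = 3).

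Sequences upstream of the members are shown because the proteins of this pathway are DNA-binding factors with known elements. ATF4 with a C/EBP partner binds the C/EBP-ATF response element (CARE, searched as TGATGNAA), and ATF and CREB factors bind the cyclic AMP response element (CRE, searched as TGACGTCA). Both strands were searched from 250 bases before to 50 after each RefSeq start site (GRCh38.p14), and all 10 members had a promoter in that table. CARE was found for 3 of 10 members, against 4.46% of 27305 genes, and CRE for 1 of 10, against 2.25% of genes. The matches are printed 5′ to 3′ on the strand that holds the motif, with the motif in capitals, and no CARE match overlapped a CRE match.
ASNS (chr7:97872461-97872484, minus strand): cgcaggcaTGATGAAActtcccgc
ATF3 (chr1:212565208-212565231, plus strand): ggtcaggaTGATGGAAggctgtca
CHAC1 (chr15:40953254-40953277, minus strand): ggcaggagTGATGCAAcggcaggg
PPP1R15A (chr19:48872355-48872378, plus strand): tctcttcgTGACGTCAgcacgccg
The first 3 hold CARE and the last holds CRE. Read in the direction of the gene, the motif began 68 bases before the start site in ASNS, 191 bases in ATF3, 209 bases in CHAC1 and 58 bases in PPP1R15A. In the gene models of the deposited table, the ASNS and CHAC1 windows lay in annotated exons of those same genes, while the ATF3 window ended 103 bases, and the PPP1R15A window 14 bases, before the first annotated base of the gene. ASNS, ATF3 and PPP1R15A carried the motif on their own strand and CHAC1 on the opposite strand. A match is a description of these letters, binding was not measured, and the absence of a match in the other 6 promoters says only that these letters are not in that window.

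**Figure D1:**
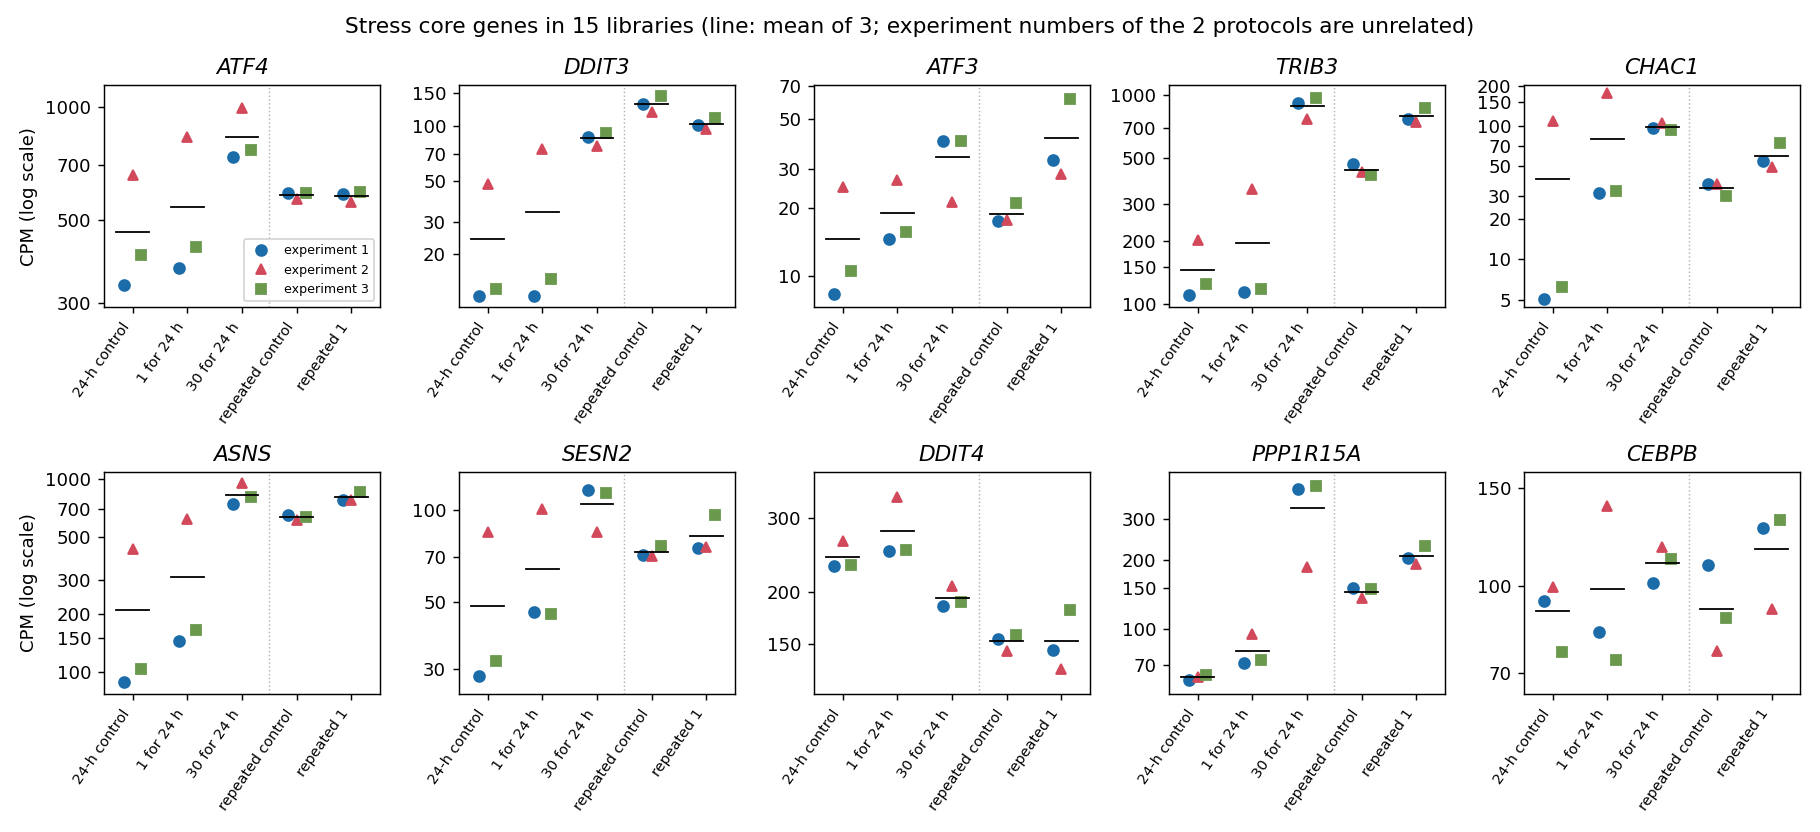
CPM (log axis) of the 10 stress core genes in all 15 libraries, with 1 panel per gene, conditions along the horizontal axis, a symbol for each experiment and a black line for the mean of 3 libraries. In the 24-h control, experiment 2 (triangle) lies above experiments 1 and 3 for CHAC1 (108 against 5.03 and 6.16 CPM), ASNS and DDIT3, whereas the 3 PPP1R15A controls lie between 59.9 and 63.4 CPM.

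The first comparison asked how the stress core responded to a high concentration of PM2.5 for 24 h. At 30 µg/cm2, TRIB3 rose 6.11-fold, PPP1R15A 5.44-fold and ASNS 4.0-fold in the unpaired fit, the only 3 of 10 members called, where 8.07% of the genes tested were called (3.82% as higher). With the experiment as a block, 8 of 10 members rose (15.2% of genes called, 7.36% as higher): ATF4, DDIT3, ATF3, TRIB3, CHAC1, ASNS, SESN2 and PPP1R15A. The same 8 rose without experiment 2 (19.1% of genes called, 9.16% as higher). Leaving out single libraries of the unpaired fit gave 8 members without the experiment 2 control and 6 without the 1 µg/cm2 library of experiment 2, and 2 or 3 otherwise. CEBPB and DDIT4 were called in none of the 3 fits. The median log2 fold-change over the members was 1.26, 1.84 and 2.39 in the unpaired fit, the paired fit and the fit without experiment 2, beside 0.03, 0.02 and 0.00 over all genes tested. Groups of 3 did not overlap for 7 of 10 members (22.8% of genes tested): ATF4, DDIT3, TRIB3, ASNS, PPP1R15A and CEBPB were higher and DDIT4 was lower in all 3 treated libraries.

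ATF4 (ENSG00000128272.14, chr22:39519695-39522685, plus strand), the factor at the head of the set, stood at 335, 657 and 402 CPM in the 24-h controls and at 734, 997 and 767 CPM at 30 µg/cm2. Every treated library lay above every control, although the experiment 2 control came near the lowest of them. The log2 fold-change was 0.84 (adjusted p = 0.0778, SE 0.28) in the unpaired fit, 0.90 (adjusted p = 0.000174, SE 0.12) in the paired fit and 1.01 (adjusted p = 4.73e-07, SE 0.10) without experiment 2. DDIT3 (ENSG00000175197.11, chr12:57516588-57520517, minus strand) encodes CHOP, a C/EBP family factor that is induced by ATF4 and linked to cell death when stress persists. Its level was 11.8, 48.1 and 12.9 CPM in the controls and 87.1, 77.7 and 91.8 CPM at 30 µg/cm2. The 3 treated libraries were close together and above all controls, of which that of experiment 2 was well above the other two. Its log2 fold-change was 1.82 (adjusted p = 0.0816, SE 0.62), 2.30 (adjusted p = 0.00107, SE 0.40) and 2.84 (adjusted p = 5.31e-11, SE 0.12) in the unpaired fit, the paired fit and the fit without experiment 2. DDIT3 exons share 28.0% of their 1266 bases with MARS1, a methionyl-tRNA synthetase gene on the other strand with 6605 to 16427 counts per library, and MARS1 itself rose at 30 µg/cm2 (log2 fold-change 0.93, adjusted p = 0.00027). How strand was treated in the counting is not given in the sources used here, so reads of both genes in the shared bases may not have been told apart.

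ATF3 (ENSG00000162772.16, chr1:212565334-212620777, plus strand), a stress-induced basic leucine zipper factor that often acts as a repressor, gave 8.37, 24.8 and 10.6 CPM in the controls and 39.7, 21.5 and 40.0 CPM at 30 µg/cm2. In experiments 1 and 3 the treated level was several times the control, while in experiment 2 the treated library was below its own control, so the groups overlapped. The log2 fold-change was 1.21 (adjusted p = 0.0769, SE 0.41) unpaired, 1.37 (adjusted p = 0.0111, SE 0.35) paired and 2.06 (adjusted p = 1.35e-05, SE 0.26) without experiment 2. CEBPB (ENSG00000172216.5, chr20:50190734-50192689, plus strand) encodes C/EBPβ, a dimer partner of both ATF4 and CHOP and a regulator of inflammatory genes. It was measured at 94.3, 99.9 and 76.3 CPM in the controls and 101, 118 and 112 CPM at 30 µg/cm2. The treated libraries were just above the controls, 101 against 99.9 CPM at the closest point, and the log2 fold-change of 0.29 (adjusted p = 0.487, SE 0.23) had a 95% interval from -0.19 to 0.77 that took in both no change and a change past the threshold of 0.6. CEBPB exons share 11.8% of their bases with CEBPB-AS1 on the other strand, which had 6 to 79 counts per library.

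TRIB3 (ENSG00000101255.10, chr20:362835-397559, plus strand) encodes a pseudokinase that binds ATF4 and dampens its activity. It had 110.3, 203 and 125 CPM in the controls and 923, 773 and 977 CPM at 30 µg/cm2. The lowest treated library was well above the highest control in this gene, in experiment 2 as in the others. Its log2 fold-change of 2.61 (adjusted p = 0.000617, SE 0.38) was called in the unpaired fit, and it was 2.73 (adjusted p = 2.52e-05, SE 0.29) in the paired fit and 3.0 (adjusted p = 4.99e-12, SE 0.10) without experiment 2. ASNS (ENSG00000070669.16, chr7:97852118-97872542, minus strand), asparagine synthetase, whose CARE is printed above, went from 88.1, 435 and 103 CPM to 744, 953 and 805 CPM. The groups did not overlap, but the experiment 2 control sat far above the other two. ASNS passed the unpaired test only narrowly, and its call ended when any of 11 of the 15 libraries was left out. Its log2 fold-change was 2.0 (adjusted p = 0.0454, SE 0.59) unpaired, against 2.47 (adjusted p = 7.98e-05, SE 0.30) when paired and 3.0 (adjusted p = 5.47e-12, SE 0.10) without experiment 2. 

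CHAC1 (ENSG00000128965.11, chr15:40952962-40956519, plus strand), an enzyme that degrades glutathione, depended most on experiment 2. Its controls had 5.03, 108 and 6.16 CPM, and the libraries at 30 µg/cm2 had 95.7, 104 and 93.6 CPM. Treated cells were thus at nearly 1 level in the 3 experiments, whereas the control of experiment 2 was already at that level, and there the treated library was slightly below the control. The log2 fold-change was 1.31 (adjusted p = 0.433, SE 0.91) with a 95% interval of -0.65 to 3.27 in the unpaired fit, 2.68 (adjusted p = 0.00625, SE 0.62) in the paired fit and 4.07 (adjusted p = 9.08e-11, SE 0.18) without experiment 2, when it was the largest among the members at 16.8-fold.

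Among the genes that restrain growth signalling or feed back on eIF2, PPP1R15A had the largest difference. PPP1R15A (ENSG00000087074.7, chr19:48872392-48876057, plus strand) encodes GADD34, which guides protein phosphatase 1 to eIF2 and so ends the response. Its controls were tight at 59.9, 61.9 and 63.4 CPM, and its treated libraries had 404, 186 and 419 CPM. All treated libraries were above all controls by a wide margin, with experiment 2 lower than the others among the treated. The log2 fold-change was 2.44 (adjusted p = 4.26e-05, SE 0.24), 2.41 (adjusted p = 1.46e-05, SE 0.24) and 2.72 (adjusted p = 5.47e-12, SE 0.10) in the 3 fits, so that its call did not depend on pairing or on experiment 2.

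SESN2 and DDIT4 both encode inhibitors of mTORC1, the kinase complex that promotes growth, and their values went in opposite directions. SESN2 (ENSG00000130766.4, chr1:28259527-28282491, plus strand), a leucine sensor, had 28.5, 84.9 and 31.9 CPM in the controls and 116, 84.5 and 114 CPM at 30 µg/cm2. Control and treated values were nearly equal in experiment 2 and far apart in experiments 1 and 3. Its log2 fold-change was 1.12 (adjusted p = 0.0792, SE 0.38) unpaired, 1.34 (adjusted p = 0.00414, SE 0.29) paired and 1.91 (adjusted p = 2.08e-09, SE 0.11) without experiment 2. DDIT4 (ENSG00000168209.4, chr10:72273920-72276036, plus strand), also known as REDD1 and induced by hypoxia and glucocorticoids as well as by ATF4, had 229.9, 264 and 232 CPM in the controls and 185, 207 and 189 CPM at 30 µg/cm2. It was lower in the treated library of each experiment, but by less than the fold threshold: the log2 fold-change was -0.32 (adjusted p = 0.189, SE 0.14) unpaired, -0.32 (adjusted p = 0.0182, SE 0.09) paired and -0.32 (adjusted p = 0.03, SE 0.11) without experiment 2.

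**Figure D2:**
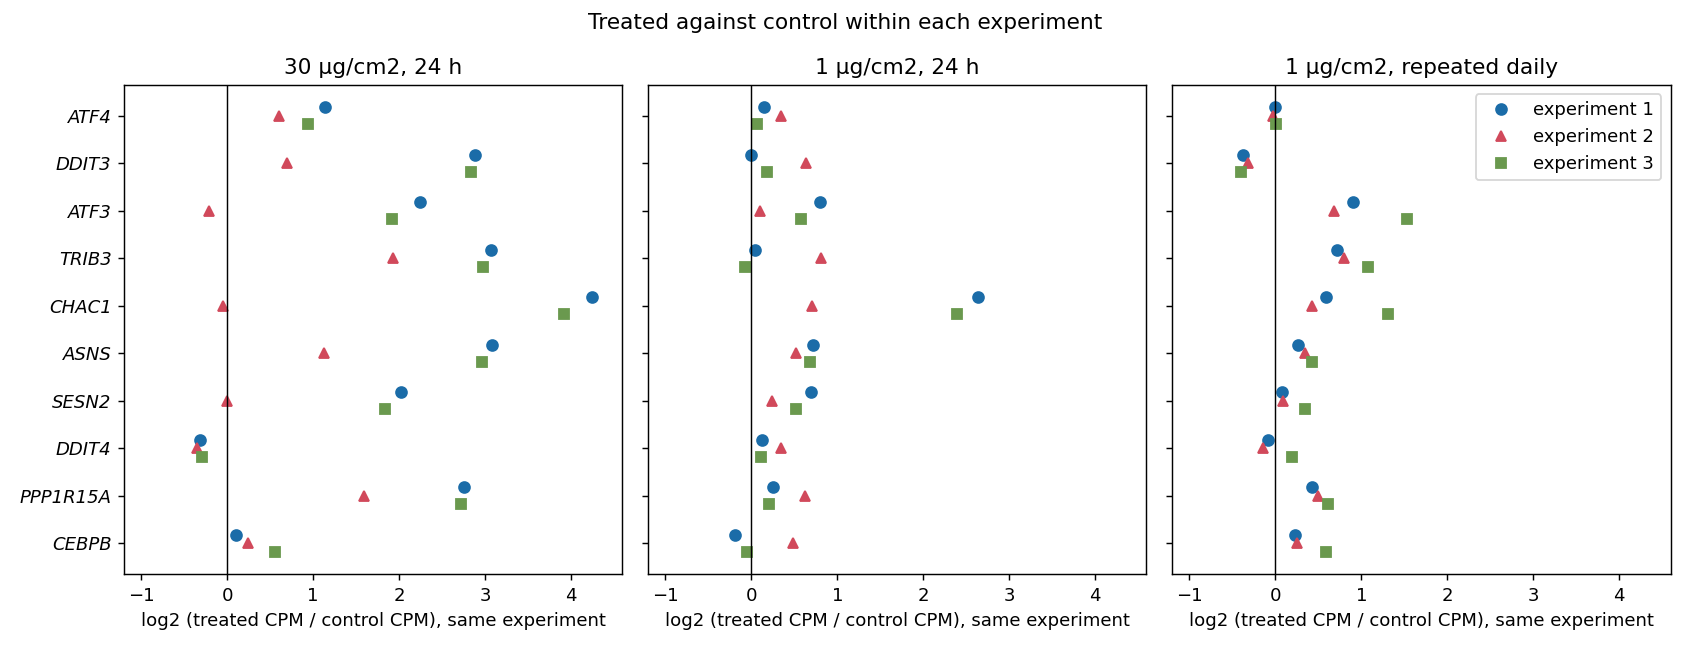
Log2 ratio of treated over control CPM within each experiment (horizontal axis) for the 10 genes (rows), in 1 panel per exposure, with a symbol for each experiment and a line at no change. At 30 µg/cm2, 9, 6 and 9 of 10 genes were higher than control in experiments 1, 2 and 3, at 1 µg/cm2 for 24 h 8, 10 and 8, and after repeated exposure 7, 7 and 9.

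Within experiments, ratios of 30 µg/cm2 over control ran from 0.804 to 19.0 in experiment 1 and from 0.814 to 15.2 in experiment 3, but from 0.783 to 3.81 in experiment 2. In both experiments 1 and 3, 9 of 10 members were higher than control and only DDIT4 was lower. In experiment 2, ATF3, CHAC1, SESN2 and DDIT4 were lower than their control, and the other 6 were higher.

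The next comparison asked whether a concentration of 1 µg/cm2 moved the same genes in 24 h. None of the 10 members was called in the unpaired fit, where 0.0625% of the genes tested were called, and none in the paired fit, where 0.42% were called. With edgeR's quasi-likelihood test, the unadjusted p was under 0.05 for 0 members unpaired and for 3 paired. It was so for 0 members with DESeq2 and with edgeR's likelihood ratio test, each of which called 0. The share of all genes at that unadjusted p is not given here, so the 3 are not read as a result. Without experiment 2, CHAC1, ASNS and SESN2 rose, 3 of 10 members against 2.11% of genes, and without its control alone only CHAC1 was called. The 24-h controls of this comparison were those used for 30 µg/cm2, so both comparisons share them.

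CHAC1 stood at 31.3, 176 and 32.4 CPM at 1 µg/cm2, which was 6.23, 1.63 and 5.25 times the control of the same experiment. It was higher in each of the 3 experiments, but the groups overlapped because the experiment 2 control exceeded the treated libraries of experiments 1 and 3. The log2 fold-change was 1.01 (adjusted p = 1, SE 0.91) unpaired, 1.56 (adjusted p = 0.416, SE 0.57) paired and 2.52 (adjusted p = 2.57e-07, SE 0.18) without experiment 2. ASNS had 144, 623 and 166 CPM and SESN2 46.1, 100.4 and 45.7 CPM, each above its own control in all 3 experiments. Their log2 fold-changes without experiment 2 were 0.71 (adjusted p = 0.000407, SE 0.10) and 0.61 (adjusted p = 0.00338, SE 0.11), against 0.57 (adjusted p = 1, SE 0.57) and 0.40 (adjusted p = 1, SE 0.37) in the unpaired fit.

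PPP1R15A was the 1 member of 10 whose groups did not overlap at 1 µg/cm2 (4.44% of genes tested), with 71.4, 95.3 and 73.0 CPM. It was higher than control by a small amount, with a log2 fold-change of 0.37 (adjusted p = 1, SE 0.23) and 0.24 (adjusted p = 0.157, SE 0.09) without experiment 2. ATF3 measured 14.6, 26.7 and 15.8 CPM and had a log2 fold-change of 0.39 (adjusted p = 1, SE 0.40), or 0.69 (adjusted p = 0.162, SE 0.27) without experiment 2. The factors at the head of the set were near their controls in experiments 1 and 3: ATF4 had 372, 832 and 422 CPM and DDIT3 11.8, 74.9 and 14.6 CPM. The same held for TRIB3, at 113, 355 and 118 CPM, for DDIT4, at 251, 336 and 251 CPM, and for CEBPB, at 83.0, 139.6 and 73.6 CPM. In all of these the library of experiment 2 was the highest, and in that experiment all 10 members were above their control, by 1.07-fold to 1.75-fold. TRIB3 turned from 0.42 to -0.01, and CEBPB from 0.13 to -0.12, on the log2 scale when experiment 2 was left out.

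Set against each other, the 30 and 1 µg/cm2 libraries differed for TRIB3 (log2 difference 2.19, adjusted p = 0.00246, SE 0.37) and PPP1R15A (2.07, adjusted p = 0.000214, SE 0.24) in the unpaired fit, 2 of 10 members where 7.84% of genes were called. Leaving out the 1 µg/cm2 library of experiment 2 brought the number to 5. The paired fit called 6 members, the others being ATF4 at 0.71 (adjusted p = 0.00095), DDIT3 at 1.95 (adjusted p = 0.00309), ASNS at 1.85 (adjusted p = 0.000527) and SESN2 at 0.89 (adjusted p = 0.0309), where 15.6% of genes were called. Without experiment 2 it was 8 members against 17.3% of genes, ATF3 and CHAC1 being added. CHAC1, which had risen at the low concentration in that fit, was still higher at 30 than at 1 µg/cm2, by 1.55 (adjusted p = 9.47e-07, SE 0.15) on the log2 scale. With all libraries its difference was 0.30 (adjusted p = 0.885, SE 0.90), with a 95% interval of -1.63 to 2.22. Groups did not overlap for 5 members, against 21.6% of genes, 4 of them higher at 30 µg/cm2. The other was DDIT4, lower at 30 than at 1 µg/cm2 in all pairs of libraries, with -0.53 (adjusted p = 0.0327, SE 0.14) unpaired and -0.52 (adjusted p = 0.00101, SE 0.09) paired, which passed the p threshold but not the fold threshold.

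**Figure D3:**
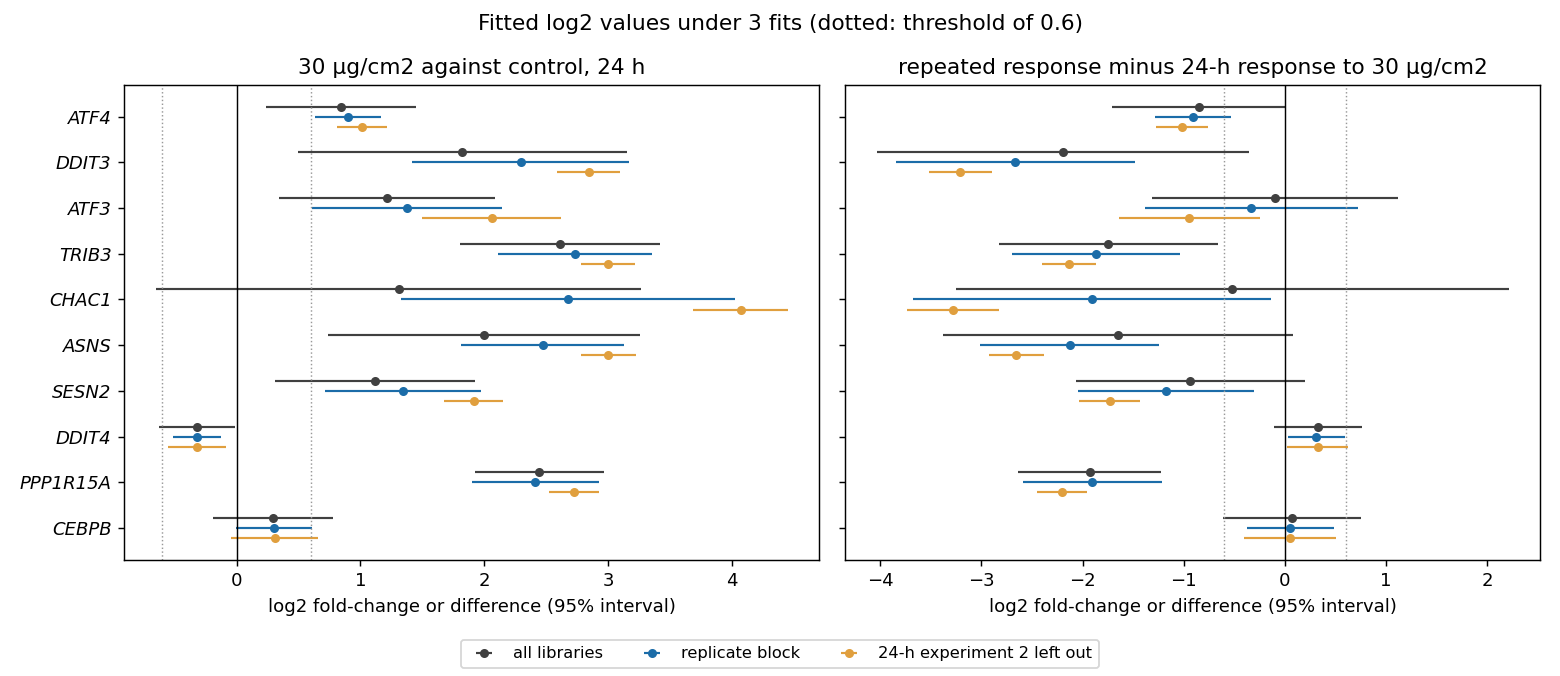
Fitted log2 values with 95% intervals (horizontal axis) for the 10 genes (rows) in the unpaired fit, the fit with a replicate block and the fit without 24-h experiment 2, for 30 µg/cm2 against control (left) and for the repeated response minus that 24-h response (right). For CHAC1 the left-hand value goes from 1.31 to 2.68 and 4.07 across the 3 fits, while for PPP1R15A it stays between 2.41 and 2.72.

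The repeated protocol asked what a daily low concentration did to the set over a week. In the unpaired fit no member was called (0.227% of genes were), and none was called in the paired fit (4.39% of genes). An unadjusted p under 0.05 was found for 3 members unpaired and 4 paired. DESeq2 and edgeR's likelihood ratio test also called 0 members, with 3 members each at an unadjusted p under 0.05. The share of all genes at that unadjusted p is not given here, so these counts are not read as a result. ATF3, TRIB3 and CHAC1 rose in the fit without the 24-h libraries of experiment 2 (6.03% of genes called) and in a fit of the 6 repeated-protocol libraries alone (6.23% of genes). The libraries of this comparison are the same in each of these fits, and what differs is which 24-h libraries enter the estimate of the spread. Groups did not overlap for 6 of 10 members, against 42.9% of the genes tested, and 5 of them were higher.

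TRIB3 had 469, 430.1 and 413 CPM in the repeated controls and 774, 746 and 869.8 CPM after repeated 1 µg/cm2. The 3 treated libraries were all above the 3 controls, and neither group varied much. Its log2 fold-change was 0.86 (adjusted p = 0.356, SE 0.36) unpaired, 0.86 (adjusted p = 0.0543, SE 0.27) paired and 0.87 (adjusted p = 8.14e-06, SE 0.08) without 24-h experiment 2. ATF3 measured 17.6, 17.8 and 21.2 CPM and then 32.9, 28.5 and 61.4 CPM, again with no overlap and with experiment 3 the highest. The corresponding log2 fold-changes were 1.12 (adjusted p = 0.282, SE 0.40), 1.04 (adjusted p = 0.0607, SE 0.34) and 1.12 (adjusted p = 0.00105, SE 0.20). CHAC1 had 36.4, 36.9 and 29.7 CPM and 54.7, 49.4 and 73.9 CPM, and every treated library was above every control. For CHAC1 the 3 fits gave 0.79 (adjusted p = 0.786, SE 0.90), 0.77 (adjusted p = 0.37, SE 0.54) and 0.79 (adjusted p = 0.000371, SE 0.12). Experiment 3 had the largest ratio over its own control for TRIB3 (2.11), ATF3 (2.90) and CHAC1 (2.49).

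PPP1R15A, with 151, 136 and 149.8 CPM in the controls and 203, 191 and 229 CPM after exposure, and ASNS, with 653, 615 and 641 CPM and 786, 779 and 863 CPM, were also higher in each treated library. They fell short of the fold threshold in all 3 fits, at 0.51 (adjusted p = 0.399, SE 0.23) and 0.35 (adjusted p = 0.859, SE 0.57) in the unpaired fit and 0.52 (adjusted p = 0.000165, SE 0.07) and 0.35 (adjusted p = 0.00463, SE 0.08) without 24-h experiment 2. DDIT3 lay on the other side of its control. It measured 131, 119.6 and 145 CPM in the repeated controls and 101, 95.8 and 109.6 CPM after exposure, with each treated library below each control and within-experiment ratios from 0.756 to 0.801. The log2 fold-change of -0.37 (adjusted p = 0.857, SE 0.60) was not called, and without 24-h experiment 2 it was -0.37 (adjusted p = 0.00582, SE 0.09), past the p threshold but not the fold threshold. MARS1, which shares exon bases with DDIT3, had 0.43 (adjusted p = 0.149) in the same unpaired comparison.

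The other 4 members overlapped between the repeated groups. ATF4 had 588, 568 and 591 CPM in the controls and 585, 559 and 592 CPM after exposure, and its log2 fold-change of -0.01 (adjusted p = 0.992, SE 0.28) had a 95% interval of -0.61 to 0.59. SESN2 went from 71.1, 70.8 and 76.2 to 75.0, 75.4 and 96.5 CPM, with experiment 3 alone clearly higher. DDIT4 (154, 144 and 158 CPM, then 145, 131 and 181 CPM) and CEBPB (109, 76.6 and 87.6 CPM, then 127, 91.0 and 132 CPM) were not set apart from their controls. None of these 4 was called in any of the 3 fits. Of the 7 airway epithelium markers, 2 fell with repeated exposure in the unpaired fit, where 0.227% of all genes tested were called. They were KRT5 at -0.93 (adjusted p = 0.0477) and TP63 at -0.99 (adjusted p = 0.0477), and their part in these values was not tested.

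The repeated response was then set against the 24-h responses as a difference of log2 fold-changes. Against the response to the same 1 µg/cm2 for 24 h, no member was called in the unpaired fit (0.0% of genes called) or the paired fit (1.03%), with an unadjusted p under 0.05 for 0 members in both and also with DESeq2 and the likelihood ratio test, which called 0. Without 24-h experiment 2, 2 members were called against 9.84% of genes, in opposite directions. The TRIB3 response was larger after repeated exposure, by 0.88 (adjusted p = 0.000336, SE 0.12), and the CHAC1 response was smaller, by -1.73 (adjusted p = 0.000133, SE 0.22). Against 30 µg/cm2, PPP1R15A had a smaller repeated response in the unpaired fit, by -1.93 (adjusted p = 0.00936, SE 0.33), the 1 member called where 1.82% of genes were. ASNS was called as well without the 24-h control of experiment 2, and TRIB3 without the 1 µg/cm2 library of experiment 2. The paired fit called 5 members, all with a smaller repeated response (14.6% of genes called): DDIT3 (-2.66, adjusted p = 0.00543), ASNS (-2.13, adjusted p = 0.00386), PPP1R15A (-1.90, adjusted p = 0.00186), TRIB3 (-1.87, adjusted p = 0.00559) and ATF4 (-0.91, adjusted p = 0.0037). Without 24-h experiment 2 these 5, ATF3, CHAC1 and SESN2 were called (21.6% of genes). Between the repeated response and that to 30 µg/cm2, concentration, number of exposures, plating density, time in culture, daily handling and batch differ together. These cannot be told apart. A difference of responses also depends on the control levels, which are compared next.

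Some stress core genes, like many other genes tested, differed in RNA level between the control cells of both protocols. In the unpaired fit DDIT3 was higher in the repeated than in the 24-h controls by 2.45 (adjusted p = 0.0104, SE 0.63) on the log2 scale, TRIB3 by 1.59 (adjusted p = 0.00531, SE 0.36) and PPP1R15A by 1.24 (adjusted p = 0.00161, SE 0.23), while DDIT4 was lower, at -0.67 (adjusted p = 0.00368, SE 0.14). These were 4 of 10 members, against 21.9% of the genes tested, and 7 members were called without the 24-h control of experiment 2 alone. The call for DDIT3 ended without the 24-h control of experiment 3. Groups did not overlap for 5 of 10 members, which is close to the 52.3% of all genes tested. Without 24-h experiment 2, 9 of 10 members were called (31.0% of genes), 8 of them higher in the repeated controls. DDIT3 then differed by 3.40 (adjusted p = 3.1e-12, SE 0.12), which is 10.6-fold, ASNS by 2.72 (adjusted p = 5.26e-12, SE 0.10) and CHAC1 by 2.61 (adjusted p = 2.97e-09, SE 0.17). CHAC1 changed direction between fits, since with all libraries its value was -0.20 (adjusted p = 0.889, SE 0.90). MARS1, whose exons overlap those of DDIT3, differed by 0.11 (adjusted p = 0.523) between the same controls. Of the 7 airway epithelium markers, 4 were higher and 2 lower in the repeated controls in the unpaired fit, and their part was not tested. The protocols were run as separate experiments and differ in plating density (lower in the repeated protocol), time in culture, daily handling and batch. These cannot be told apart, and no fit with the batch as a block is possible here.

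The highest level of a member was not always in treated cells. Mean DDIT3 was 132 ± 12.8 CPM in the repeated controls, 102 ± 7.01 after repeated exposure, 85.5 ± 7.17 at 30 µg/cm2, 33.8 ± 35.7 at 1 µg/cm2 and 24.3 ± 20.7 in the 24-h controls. In that order only the last neighbouring pair overlapped over libraries. TRIB3 was highest at 30 µg/cm2 (891 ± 106 CPM) and after repeated exposure (796 ± 65.0), which overlapped, followed by the repeated controls (438 ± 28.8), and then 1 µg/cm2 (196 ± 138) and the 24-h controls (146 ± 49.7), which overlapped. PPP1R15A had the same order, with 336 ± 131, 208 ± 19.2, 145 ± 8.33, 79.9 ± 13.4 and 61.7 ± 1.73 CPM, and only the first neighbouring pair overlapped. ASNS also followed it, from 834 ± 107 and 809 ± 46.8 CPM, which overlapped, through 637 ± 19.5 to 311 ± 270.5 and 209 ± 196 CPM, the lower 3 overlapping in turn.

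ATF4 stood apart in 1 condition, with 833 ± 143 CPM at 30 µg/cm2, above the repeated controls (582 ± 12.7), and each later neighbour in its order overlapped: repeated exposure (579 ± 17.9), 1 µg/cm2 (542 ± 252) and the 24-h controls (464 ± 170.0). DDIT4 stood at 279 ± 49.3 CPM at 1 µg/cm2 and 242 ± 19.1 in the 24-h controls, which overlapped, then 194 ± 11.7 at 30 µg/cm2, and last 152 ± 25.6 and 152 ± 7.06 in the repeated groups, which overlapped. For ATF3, CHAC1, SESN2 and CEBPB each neighbouring pair in the order overlapped. Means of ATF3 ran from 14.6 ± 8.92 CPM in the 24-h controls to 41.0 ± 17.9 CPM after repeated exposure, and those of CEBPB from 90.2 ± 12.3 to 117 ± 22.3 CPM in the same 2 conditions. CHAC1 ran from 34.3 ± 4.04 CPM in the repeated controls to 97.8 ± 5.60 CPM at 30 µg/cm2, and SESN2 from 48.4 ± 31.6 CPM in the 24-h controls to 105 ± 17.6 CPM at 30 µg/cm2. Levels per kilobase of exon allow only a rough comparison between genes. The length takes in all annotated exons of a gene, and which RNA forms the cells made was not measured. On this scale ATF4 had the highest mean level of the set in 4 of 5 conditions, from 185 CPM per kilobase in the 24-h controls to 331 at 30 µg/cm2. After repeated exposure TRIB3 stood beside it, at 232 against 230.2 CPM per kilobase. ATF3 had the lowest in all 5, from 3.61 to 10.1 CPM per kilobase.

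Other genes of the pathway were taken from lists of textbook targets and regulators, and are given as counts beside those of the members. The lists were chosen with earlier results of these data known, so their shares are a description and not a test. At 30 µg/cm2, many listed ATF4 targets that supply amino acids or charge tRNA rose in the unpaired fit. They were 8 of 12 for amino acid synthesis, 5 of 8 for amino acid transport and 10 of 13 for tRNA charging. None was called lower, and 3.82% of all genes tested were called higher. The counts were 9, 7 and 10 in the paired fit (7.36% of all genes called higher) and 10, 7 and 11 without experiment 2 (9.16%). In the control of experiment 2, 3, 2 and 1 of the genes of these lists stood at least 2-fold above their mean in experiments 1 and 3. The share of all genes tested that did so was 5.95%. PSAT1, of serine synthesis, had a log2 fold-change of 1.27 (adjusted p = 0.0167), ALDH1L2, of mitochondrial folate metabolism, 2.08 (adjusted p = 0.000291), and CTH, which makes cysteine, 1.55 (adjusted p = 0.00405). SLC7A11, the cystine importer that is also a target of NRF2, went from 48.1 ± 39.1 to 366 ± 156 CPM, a log2 fold-change of 2.93 (adjusted p = 0.00229). The neutral amino acid transporter SLC7A5 went from 596 ± 20.6 to 1301 ± 101 CPM, 1.13 (adjusted p = 0.000122). ALDH18A1 of proline synthesis (-0.05, adjusted p = 0.899), ASS1 of arginine synthesis (0.18, adjusted p = 0.861) and the transporter SLC38A2 (-0.35, adjusted p = 0.284) were not called.

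Of 14 other listed ATF4 targets, 5 rose at 30 µg/cm2 in the unpaired fit, where 3.82% of all genes tested were called higher. In the paired fit 8 rose and 1 fell, where 7.36% were called higher and 15.2% were called in either direction. GDF15, a secreted stress cytokine that is also a p53 target, showed 20.1 ± 7.02 CPM in the controls and 272 ± 118 CPM at 30 µg/cm2 (3.76, adjusted p = 6.98e-05), and NIBAN1 (2.33, adjusted p = 0.00015) and STC2 (1.63, adjusted p = 6.98e-05) rose as well. Of 7 listed CHOP targets and death genes, 2 rose unpaired and 4 paired, against the same 3.82% and 7.36% of all genes. Among them were the death receptor TNFRSF10B (1.14, adjusted p = 0.00502) and PMAIP1 (0.78, adjusted p = 0.0167), which p53 also controls. Upstream of ATF4, none of 18 listed genes, which were those of the eIF2 kinases, eIF2, eIF2B and their regulators, was called in any of the 3 fits at 30 µg/cm2, EIF2AK3 (PERK) being at 0.09 (adjusted p = 0.782). Nor was any of 16 genes of mTORC1 and its inhibitors.

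For the arms of the unfolded protein response that run beside ATF4, 20 targets of IRE1, XBP1 and ATF6 were listed. At 30 µg/cm2, 15 of the 20 were not called, 2 rose and 3 fell in both the unpaired and the paired fit, where 8.07% and 15.2% of all genes tested were called, and 3 rose and 7 fell without experiment 2, where 19.1% were called. XBP1 (1.12, adjusted p = 0.00334) and ERN1, which encodes IRE1 (1.34, adjusted p = 0.00546), rose, while the chaperones and folding enzymes HSP90B1 (-0.67, adjusted p = 0.0166), PDIA4 (-0.66, adjusted p = 0.0153) and CALR (-0.77, adjusted p = 0.0223) fell. HSPA5, the chaperone BiP, was at -0.29 (adjusted p = 0.582) and was not called.

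**Figure D4:**
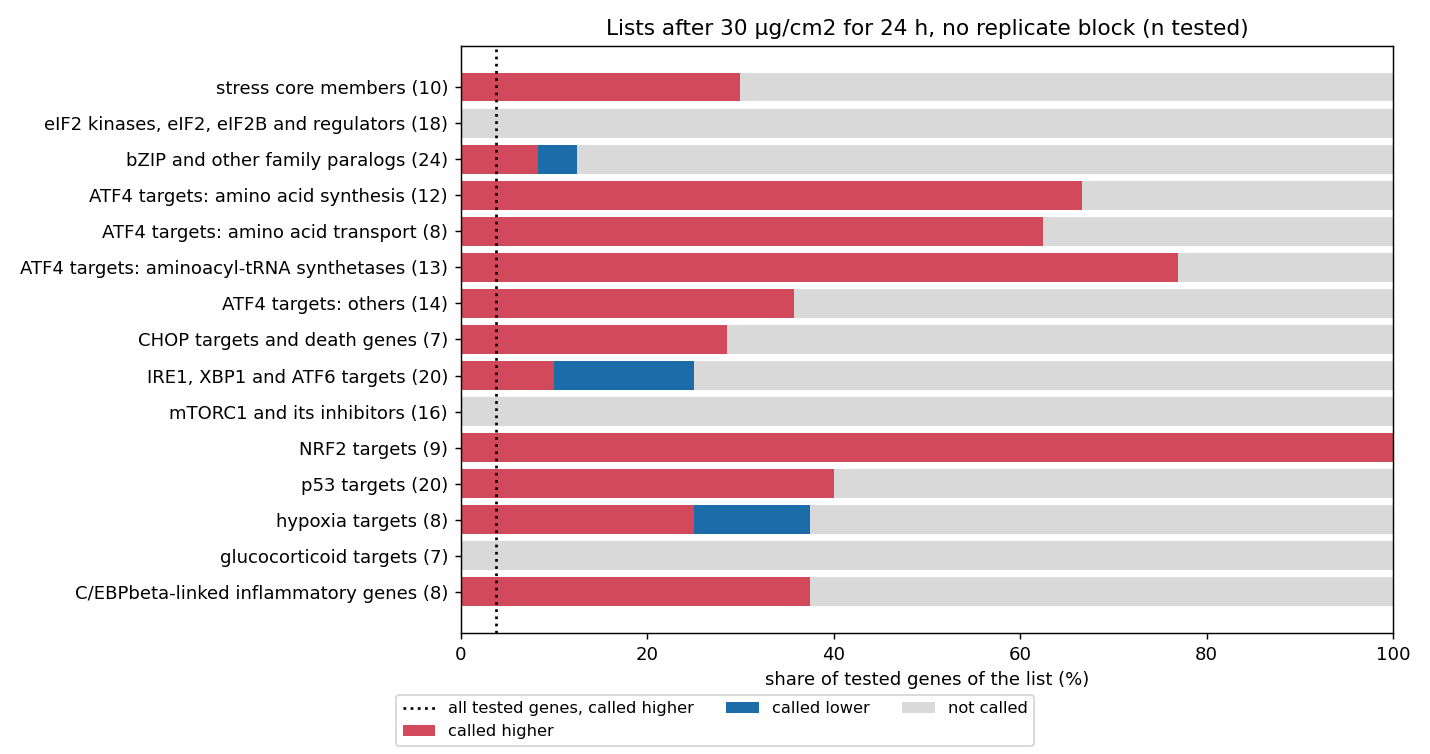
Share of the tested genes of each list (horizontal axis, percent) that were called higher, called lower or not called at 30 µg/cm2 against the 24-h control in the unpaired fit, with the number of genes tested in brackets and a dotted line at the 3.82% of all tested genes called higher. Of the 10 stress core genes 3 were called, against 8 of 12 listed ATF4 targets of amino acid synthesis and 10 of 13 of tRNA charging. No gene was called among 18 of the eIF2 kinases, eIF2, eIF2B and their regulators.

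At 1 µg/cm2 for 24 h the only call in these pathway lists in the unpaired fit was SLC7A5, with 1511 ± 223 CPM and a log2 fold-change of 1.34 (adjusted p = 0.000292). In the paired fit, where 0.42% of all genes tested were called, 2 of 8 transporters rose and no other gene of these lists was called. Without experiment 2, where 2.11% were called, 3 of 8 transporters, 4 of 14 other ATF4 targets and 1 of 12 synthesis genes rose. No gene of the tRNA charging, CHOP, IRE1 and ATF6, eIF2 or mTORC1 lists was called in that fit. After repeated exposure no gene of the amino acid, tRNA, other ATF4, CHOP, IRE1 and ATF6, eIF2 or mTORC1 lists was called in the unpaired fit. In the paired fit, where 4.39% of all genes tested were called, 1 of 12 synthesis genes rose (PSAT1). Of 14 other ATF4 targets, 2 rose (STC2 and FGF21) and 1 fell (KLHL24), and 2 of 20 IRE1 and ATF6 targets fell (HSPA5 and CALR). No gene of the transporter, tRNA charging, CHOP, eIF2 or mTORC1 lists was called in that fit. Between controls of the 2 protocols 21.9% of all genes tested were called in the unpaired fit. There, 6 of 12 synthesis genes, 1 of 8 transporters and 1 of 13 genes of tRNA charging were higher in the repeated controls. So were 6 of 14 other ATF4 targets, 2 of 7 CHOP targets and 8 of 20 IRE1 and ATF6 targets. HSPA5 was at 0.84 (adjusted p = 0.0372) and DNAJB9, an ER co-chaperone, at 1.45 (adjusted p = 6.4e-05). A synthesis gene, ALDH18A1, was lower. Of the 18 genes of the eIF2 list, 1 was higher, EIF2AK3 at 0.72 (adjusted p = 0.00345), and 3 were lower, EIF2B2, EIF2B3 and EIF2B4. Of the 16 mTORC1 genes, 1 was higher.

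The genes whose profiles were most like those of the members were found as the 2 tested non-members with the smallest mean absolute difference of centred log2 CPM over the 15 libraries. For ATF4 they were SARS1 (0.0953) and SLC43A1 (0.105), for ASNS ADM2 (0.162) and SLC6A9 (0.266), and for SESN2 GPT2 (0.170) and SLC1A4 (0.185). For PPP1R15A they were SRSF12 (0.156) and KCTD15 (0.188), for TRIB3 BEX2 (0.246) and DUSP15 (0.257), and for ATF3 CTH (0.235) and ULBP1 (0.238). DDIT4 had ZDHHC6 (0.0983) and DAGLB (0.105), and CEBPB had ING2 (0.125) and PKMYT1 (0.133). DDIT3 had ERFE (0.330) and NDUFA4L2 (0.408), and the neighbours of CHAC1 are not reported here. The libraries share their batches and conditions, so a small difference is a description of these profiles only.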

How the data were processed

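RNA of BEAS-2B cells was sequenced by the authors as single-end reads of 50 bases after poly-A selection. Reads were aligned with STAR and counted per gene with featureCounts by the authors, and the deposited values are raw counts per gene with exon coordinates. The methods and the table's coordinates are GRCh38, whereas the submitters' processing notes name hg19. The annotation release and the strand setting of the counting are not given in the sources used here. The members and lists were chosen with earlier results of these data known.

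From the counts, genes were filtered with filterByExpr, scaled by TMM and tested with edgeR 4.0.16 (glmQLFit in its earlier mode and glmQLFTest; limma 3.58.1, R 4.3.3), with 1 mean per condition over all 15 libraries, as thresholds an adjusted p under 0.05 (Benjamini-Hochberg) and a log2 fold-change of at least 0.6 in size. Standard errors are the log2 fold-change over the square root of its F statistic. The procedure was tested on simulated data. Named genes are the 10 members, genes of the lists, and for each member the nearest profiles; cell type markers were listed in the same way. Alternatives were another normalization, other filters, DESeq2 1.42.0, edgeR's likelihood ratio test and current quasi-likelihood mode, only the libraries compared, a replicate block, each library left out in turn, and all libraries of 24-h experiment 2 left out. Tables and plots used Python 3.11.15, pandas 2.3.3, scipy 1.17.1 and matplotlib 3.10.9.

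The series' design text states that the experiment number marks a batch. Deviations from the group mean correlated between same-numbered libraries at 0.185 to 0.700 in the 24-h protocol and 0.108 to 0.159 in the repeated protocol. Between libraries with different numbers the ranges were -0.659 to 0.425 and -0.112 to -0.0310. The 24-h ranges overlap, and centring on a mean of 3 libraries lowers the values between different numbers. With the design text, the numbers were taken as pairs. Replicates are independent experiments on 1 cell line, so p-values measure the spread between experiments on that line. Between 21460981 and 34724765 counts per library back the values.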

Additional observations from a re-analysis of the deposited data

How the results depend on the processing

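The replicate block, in which the experiment number pairs the libraries of a protocol, moved the number of members called from 3 to 8 at 30 µg/cm2 against control, from 2 to 6 at 30 against 1 µg/cm2, and from 1 to 5 for the repeated response minus the response to 30 µg/cm2. It left the counts at 0 for 1 µg/cm2, for repeated exposure and for their difference. Without 24-h experiment 2 the counts were 8, 8 and 8 in the first 3 comparisons, 3 for 1 µg/cm2, 3 for repeated exposure, 2 for the repeated response minus the response to 1 µg/cm2, and 9 in place of 4 between controls. With no filter on low counts they were 7, 4 and 3, and 1 for repeated exposure, and with only the libraries compared 0 at 30 against 1 µg/cm2, 2 for the repeated response minus that to 30 µg/cm2 and 3 for repeated exposure. DESeq2 gave 6 and edgeR's likelihood ratio test 7 at 30 µg/cm2 against control, and both gave 2 for the repeated response minus that to 30 µg/cm2. With 1 library left out, counts ran from 2 to 8, 2 to 5 and 1 to 2 in the same first 3 comparisons, 0 to 1 for 1 µg/cm2 and 3 to 7 between controls, the extremes above the main counts being the experiment 2 libraries at 0 and 1 µg/cm2. The remaining counts stayed within 1.5 times their value.

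Some single log2 values changed sign with the setting. Without 24-h experiment 2, TRIB3 (-0.0118) and CEBPB (-0.12) did so at 1 µg/cm2, and CHAC1 (2.61) between controls. After repeated exposure ATF4 was 0.0189 with upper quartile scaling, and DDIT4 was -0.00399 with RLE scaling, -0.00401 with DESeq2 and -0.0105 with the block. CEBPB between controls was -0.00968 with RLE scaling, -0.00967 with DESeq2, -0.00406 with a filter at 1 CPM and -0.00345 with the libraries compared alone. With 1 library left out, values at 1 µg/cm2 ran from -0.23 to 0.58 for ATF4, -0.87 to 1.46 for DDIT3, -0.34 to 0.75 for TRIB3, -0.32 to 3.85 for CHAC1, -0.44 to 1.72 for ASNS, -0.0781 to 1.10 for SESN2 and -0.20 to 0.31 for CEBPB, the negative ends being without the 1 µg/cm2 library of experiment 2. They ran from -0.0294 to 0.0151 for ATF4 and -0.14 to 0.0984 for DDIT4 after repeated exposure, and from -0.11 to 1.61 for CHAC1 and -0.0271 to 0.48 for CEBPB at 30 against 1 µg/cm2. For the repeated response minus that to 1 µg/cm2 the ranges were -0.58 to 0.23 for ATF4, -1.83 to 0.51 for DDIT3, -3.06 to 1.12 for CHAC1, -1.37 to 0.79 for ASNS and -0.92 to 0.26 for SESN2, and minus that to 30 µg/cm2 -0.71 to 0.21 for ATF3, -3.33 to 0.0381 for CHAC1 and -0.0445 to 0.22 for CEBPB. Between controls they were -0.77 to 2.60 for CHAC1 and -0.13 to 0.13 for CEBPB. The causes were not tested. The calls of TRIB3 and PPP1R15A at 30 µg/cm2 held with each of the 15 libraries left out in turn.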

Other observations

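Relatives of the members outside the set were counted at 30 µg/cm2, listed together with the GADD45 family, to which no member belongs. Of the 24 tested genes of this list (bZIP, C/EBP, tribbles, sestrin, CHAC and GADD45 families), 21 were not called in edgeR's unpaired fit. In it 2 rose and 1 fell, where 8.07% of all genes tested were called. In the paired fit 4 rose and 4 fell, where 15.2% were called. CEBPG, an ATF4 partner, had 93.4 ± 40.4 CPM in the 24-h controls and 188 ± 16.9 CPM at 30 µg/cm2, a log2 fold-change of 1.01 (adjusted p = 0.0247), and GADD45A had 1.39 (adjusted p = 0.000983). TRIB2, in contrast to TRIB3, fell from 29.6 ± 12.9 to 11.6 ± 3.60 CPM, -1.36 (adjusted p = 0.0151). PPP1R15B, the constitutive counterpart of PPP1R15A, was at 0.44 (adjusted p = 0.266) and was not called. After repeated exposure the glutathione-degrading CHAC2 rose in the paired fit, at 0.90 (adjusted p = 0.00563). It was the 1 call among the 24 genes of this list, where 4.39% of all genes tested were called.

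Neighbouring stress programmes were counted in the same unpaired fit at 30 µg/cm2. In it, 3.82% of all genes tested were called higher and 8.07% were called in either direction. All 9 listed NRF2 targets rose, with OSGIN1 at 3.38 (adjusted p = 2.08e-05), and 8 of 20 listed p53 targets rose, with PLK3 at 1.58 (adjusted p = 0.000769). Of 8 hypoxia targets, NDRG1, at 2.49 (adjusted p = 0.000535), and VEGFA, at 1.59 (adjusted p = 0.000221), rose and CA9, at -4.10 (adjusted p = 0.000595), fell. None of 7 glucocorticoid targets was called in that fit, and 3 fell in the paired fit, where 15.2% of all genes tested were called. Of 8 inflammatory genes linked to C/EBPβ, 3 rose, among them LCN2, at 3.03 (adjusted p = 0.00323), and CXCL8, at 2.13 (adjusted p = 0.00298). After repeated exposure the only call in these 5 lists in the unpaired fit was ADM, a hypoxia target, which fell, with -1.98 (adjusted p = 0.00675).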
